A study of Homo sapiens with 10 samples.

Results

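The 10 aldehyde dehydrogenase genes ALDH1A1, ALDH1A3, ALDH1B1, ALDH2, ALDH3A1, ALDH3A2, ALDH3B1, ALDH7A1, ALDH9A1 and ALDH18A1 were taken by name from a count table of 33551 rows, and all 10 were present in it. A549 is an established human lung adenocarcinoma cell line. RNA was sequenced from 5 A549 lines: wild type (WT), KO (by its label a knockout of ABCA3), and L101P, E292V and E690K, each named for a variant of ABCA3. Each line gave 1 library from untreated cells and 1 from cells exposed overnight to LV-ABCA3:GFP, a VSVG lentiviral vector, at an MOI (multiplicity of infection) of 20, for 10 libraries in all. Each genotype was represented by 1 line, and the labels do not say whether the cultures were independent. With 1 library for each line and vector status, the error behind the p-values is how unevenly the lines differ between their untreated and transduced libraries. That spread may be technical, and it includes any response to the vector that differs between lines. The p-values therefore describe these lines and not the genotypes. All lines were grown in serum-supplemented DMEM.

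Aldehyde dehydrogenases oxidise reactive aldehydes to carboxylic acids with NAD or NADP as cofactor, and they protect cells from aldehydes made by lipid peroxidation, alcohol breakdown and smoke. The family also has biosynthetic members: the ALDH1A enzymes make retinoic acid from retinal, ALDH9A1 acts in carnitine synthesis, and ALDH18A1 makes the precursor of proline from glutamate. ALDH1A1 and ALDH3A1 are well known as highly expressed enzymes of lung tumour cells.

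The shallowest library was untreated L101P, with 59430095 counts, and the deepest was transduced L101P, with 96811421. Levels are given as CPM, counts scaled to a common library size with TMM normalisation. Epithelial markers were present in the 10 libraries, with KRT8 at 3673 to 7945 CPM and EPCAM at 7.62 to 22.4 CPM, whereas the alveolar type 2 markers SFTPC, SFTPB, SFTPA1, SFTPA2, SFTPD, NKX2-1 and LAMP3 summed to 0.614 to 1.47 CPM. The targeted gene went against the labels in the KO pair: ABCA3 was at 600 CPM in the library labelled untreated and 26.0 CPM in the library labelled transduced, and EGFP was at 37.9 and 0.0497 CPM in the same 2 libraries. EGFP was also read in the untreated libraries of the other lines, from 1.00 CPM in L101P to 69.7 CPM in WT, and was higher in the transduced library of each of these 4 lines. ABCA3 was higher in the transduced library of WT, E292V and E690K, but not of L101P, where it was at 1151 CPM untreated and 922 CPM transduced. Directions of the vector effect drawn from the KO pair rest on those labels.

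The paralogs ALDH1A1 and ALDH1A3, which both turn retinal into retinoic acid, are described separately, and the sequences around their start sites are shown because ALDH1A3 passed the test of the lines and ALDH1A1 did not. The difference between the genes was not tested. In the RefSeq promoter table for GRCh38.p14, the window from 250 bases before to 50 bases after the start lay at chr15:100879581-100879880 on the plus strand for ALDH1A3 and at chr9:72953004-72953303 on the minus strand for ALDH1A1. Capitals mark matches, on either strand, to GCGTG, the core of the xenobiotic response element bound by the aryl hydrocarbon receptor.

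ALDH1A3: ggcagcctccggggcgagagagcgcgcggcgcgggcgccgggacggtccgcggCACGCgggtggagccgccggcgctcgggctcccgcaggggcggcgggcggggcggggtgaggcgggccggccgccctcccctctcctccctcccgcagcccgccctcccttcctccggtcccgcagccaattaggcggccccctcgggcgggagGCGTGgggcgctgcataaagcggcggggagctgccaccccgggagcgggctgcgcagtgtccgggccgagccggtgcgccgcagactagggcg
ALDH1A1: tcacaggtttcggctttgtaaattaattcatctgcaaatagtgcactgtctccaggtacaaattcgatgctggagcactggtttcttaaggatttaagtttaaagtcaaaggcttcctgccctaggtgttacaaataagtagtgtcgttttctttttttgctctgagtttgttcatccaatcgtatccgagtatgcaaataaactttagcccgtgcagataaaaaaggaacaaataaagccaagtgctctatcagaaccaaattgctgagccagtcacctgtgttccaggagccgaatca

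The ALDH1A3 window held 46 CG dinucleotides and 2 matches to GCGTG, both upstream of the start, and the ALDH1A1 window held 7 CG dinucleotides and 0 matches. The median over the 35116 windows of the table was 14 CG dinucleotides, and 36.5% of them held at least 1 GCGTG. Of the 8 members with an entry, ALDH3A2 was the other with GCGTG, with 2 matches at the second of its 2 listed starts. The antioxidant response element TGACNNNGC, searched on both strands, was in 0 windows of the members and in 13.4% of all windows. A match to these letters is a description of the sequence and not a measured binding site. ALDH2 and ALDH3A1 had no entry.

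The members spanned a wide range of levels, and ALDH1A1 stood far above the rest. Summed over the 10 genes, they took 0.775% to 1.04% of all counts of a library, and ALDH1A1 made up 63.6% to 80.5% of that sum. ALDH1A1 ranked between 4th and 7th among all rows by counts in every library. Per kilobase of annotated exon, ALDH1A1 averaged 2134 CPM, followed by ALDH3A1 with 431 and ALDH3A2 with 56.6 CPM per kilobase. ALDH3B1 (37.0), ALDH1B1 (27.3), ALDH18A1 (26.9) and ALDH9A1 (21.7 CPM per kilobase) formed a middle group. ALDH2, ALDH1A3 and ALDH7A1 were the lowest per kilobase of exon, at 6.75, 6.43 and 3.88 CPM. This order depends on the length used, the union of all annotated exons. That length was 17.97 kb for ALDH7A1 and 9.72 kb for ALDH2, against 3.308 kb for ALDH9A1. Before division by length, ALDH7A1, ALDH2 and ALDH9A1 averaged 69.8, 65.6 and 71.8 CPM, and ALDH1A3 averaged 37.1 CPM. The ratio of ALDH1A1 to ALDH1A3 per kilobase of exon lay between 220 and 579.

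**Figure D1:**
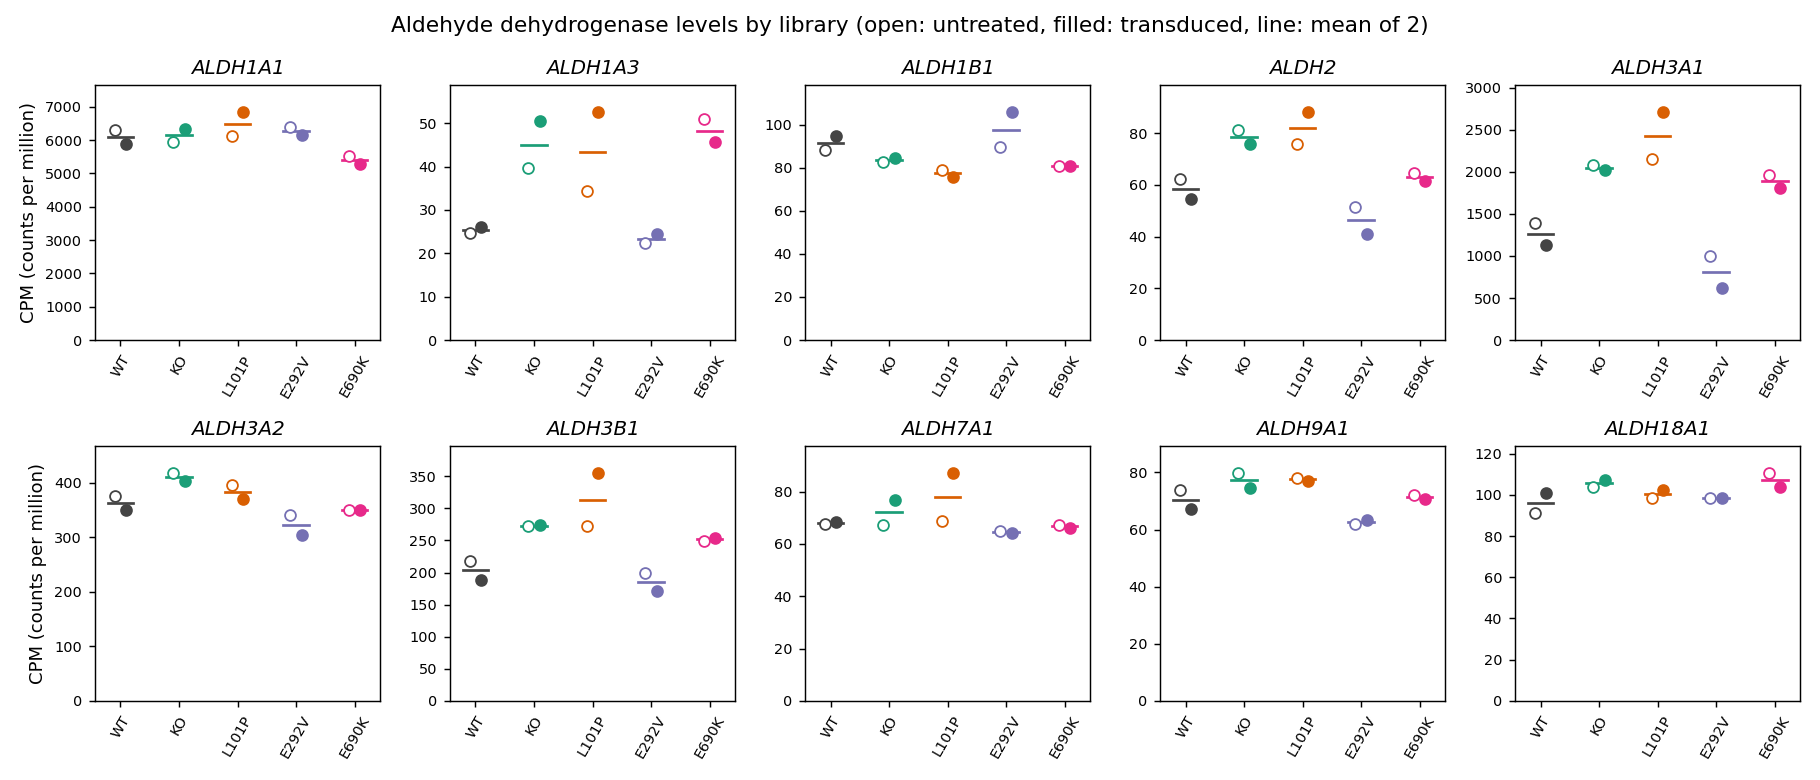
Level of each aldehyde dehydrogenase (CPM, vertical axis from 0, a separate scale for each gene) in the untreated (open) and transduced (filled) library of each line, with the horizontal bar at the mean of the 2 libraries. ALDH3A1 ran from 619 CPM in transduced E292V cells to 2708 CPM in transduced L101P cells, whereas ALDH1A1 stayed between 5274 and 6835 CPM.

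To ask which members differed among the 5 lines, the 4 line terms of an additive model with line and vector were tested jointly (edgeR quasi-likelihood test, Benjamini-Hochberg adjustment over 17978 genes, threshold 0.05). All 10 members passed the filter on low counts. Of these, 5 passed the joint test: ALDH3A1 (edgeR adjusted p = 3.82e-04), ALDH1A3 (7.35e-04), ALDH2 (0.00137), ALDH3B1 (0.00433) and ALDH3A2 (0.0362). Over the whole table, 13.0% of the genes passed. ALDH1A1, ALDH1B1, ALDH7A1, ALDH9A1 and ALDH18A1 did not pass, with edgeR adjusted p from 0.065 for ALDH9A1 to 0.496 for ALDH18A1. Among the 5 calls ALDH3A2 was lost in some alternatives: its edgeR adjusted p reached 0.256 when the E292V pair was left out, and 0.248 without the KO pair. The other 4 passed the joint test under every alternative run, with edgeR or DESeq2 adjusted p of at most 0.0296. Of the members that did not pass, ALDH1B1 and ALDH9A1 each passed in 5 of 20 alternatives, among them DESeq2 (adjusted p = 0.0233 and 0.0138). ALDH1A1 passed in 2 and ALDH7A1 in 1, in both cases without the untreated L101P library (edgeR adjusted p = 0.00659 and 0.021), and for ALDH1A1 also without the filter on low counts (0.0399).

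ALDH3A1, a cytosolic enzyme that oxidises medium-chain and aromatic aldehydes, differed most. Its gene spans positions 19737984 to 19748943 of chromosome 17, minus strand (GRCh38, GENCODE release 29, as for all gene positions here). In the untreated and transduced libraries ALDH3A1 was at 1393 and 1135 CPM in WT, 2079 and 2023 in KO, 2155 and 2708 in L101P, 1002 and 619 in E292V, and 1962 and 1813 in E690K. The lines followed each other in the order E292V, WT, E690K, KO and L101P, and the 2 libraries of each line did not overlap with those of the next line. The mean of L101P was 3.00 times that of E292V. In RNA from bulk cultures such as these, fewer expressing cells and less RNA per cell cannot be told apart. Counting error was small beside these gaps: the 95% Wilson interval of the lowest library was 612 to 626 CPM.

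ALDH3A1 was higher in L101P than in WT by 0.96 on the log2 scale (SE 0.16, edgeR adjusted p = 0.00886). The estimates for KO, E690K and E292V were 0.71, 0.58 and -0.65 (SE 0.16 each), and none of the 3 passed (edgeR adjusted p = 0.0525, 0.0616 and 0.0993). The difference was the same way in both vector states in every line, for example 0.63 and 1.25 (log2) in L101P and -0.48 and -0.88 in E292V.

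ALDH1A3, the second retinal-oxidising member, lies on chromosome 15 from 100877714 to 100916626 on the plus strand. In the main edgeR fit it was the only member that passed in more than 1 line. DESeq2 also called ALDH2 and ALDH3B1 in KO (DESeq2 adjusted p = 0.0084 and 0.0112), as well as in L101P. Untreated and transduced levels of ALDH1A3 were 24.7 and 26.0 CPM in WT, 39.6 and 50.6 in KO, 34.4 and 52.5 in L101P, 22.4 and 24.4 in E292V, and 50.9 and 45.7 in E690K. The WT and E292V libraries formed a low group and the other 6 libraries a high one, with no overlap, and the 3 high lines overlapped among themselves.

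The log2 fold change of ALDH1A3 against WT was 0.82 in KO (SE 0.14, edgeR adjusted p = 0.0143), 0.76 in L101P (SE 0.14, 0.0142) and 0.94 in E690K (SE 0.14, 0.0028), and the E292V estimate was -0.12 (SE 0.14, 0.862). The comparisons share the WT libraries. An annotated antisense gene, AC015712.2, shares 1585 bases of exon with ALDH1A3 and had up to 500 counts where ALDH1A3 had 1812 to 4941. The strand setting of the counting is not given in the sources used here, so reads of the overlapping parts cannot be told apart.

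ALDH1A1, at chromosome 9 from 72900662 to 73080442 on the minus strand, did not pass the joint test. It was at 6299 and 5884 CPM in WT, 5953 and 6345 in KO, 6124 and 6835 in L101P, 6385 and 6164 in E292V, and 5527 and 5274 in E690K. E690K was the lowest line and its libraries did not overlap with those of the others, while the other 4 lines overlapped with their neighbours in the order. The highest line mean was 1.20 times the lowest. Against WT, E690K was estimated at -0.17 in log2 (SE 0.08) and did not pass (edgeR adjusted p = 0.231), and the other 3 estimates lay between 0.01 and 0.09.

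ALDH2 and ALDH1B1 are the mitochondrial acetaldehyde-oxidising members, ALDH2 being the main enzyme of acetaldehyde removal after ethanol. ALDH2 (chromosome 12, 111766887 to 111817529, plus strand) was at 62.2 and 54.5 CPM in WT, 81.2 and 75.8 in KO, 75.7 and 88.0 in L101P, 51.5 and 41.1 in E292V, and 64.4 and 61.5 in E690K. KO and L101P were high, E292V low, and WT and E690K overlapped in between. Against WT it was higher in L101P (log2 fold change 0.50, SE 0.11, edgeR adjusted p = 0.026), and the KO and E292V estimates of 0.43 and -0.34 (SE 0.11 each) had adjusted p of 0.07 and 0.231. AC002996.1, annotated as protein coding on the same strand, shares 680 bases of exon with ALDH2 and had 0 counts in every library. How reads of the shared bases were assigned is not given in the sources used here.

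ALDH1B1, at chromosome 9 from 38392664 to 38398661, ran the other way. Its lowest line was L101P, at 78.9 and 75.7 CPM, and its highest was E292V, at 89.5 and 106 CPM. It did not pass the joint test (edgeR adjusted p = 0.0656), nor any comparison with WT, where the estimates were -0.24 (SE 0.08, adjusted p = 0.14) in L101P and 0.09 (SE 0.08, 0.799) in E292V. Over the 10 libraries, which come from only 5 lines, the log2 levels of ALDH1B1 and ALDH3A1 had a Pearson r of -0.96.

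**Figure D2:**
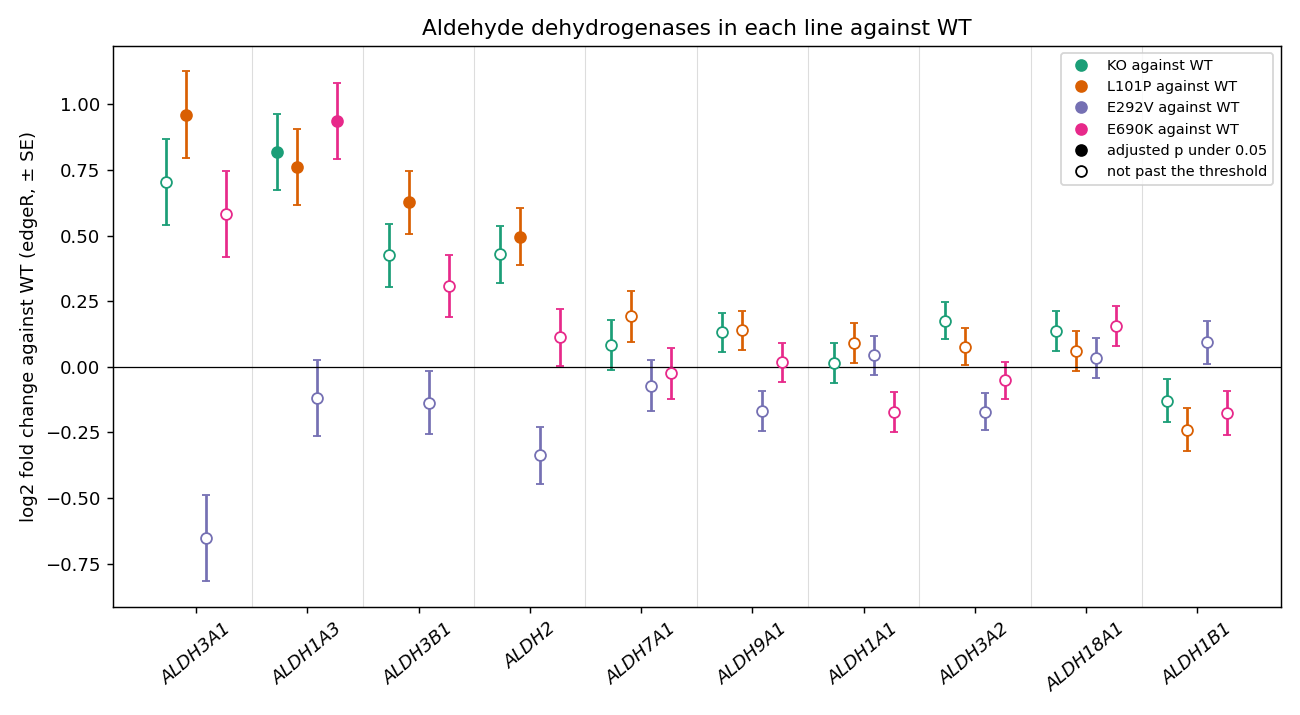
Log2 fold change of each member in the KO, L101P, E292V and E690K lines against WT (edgeR additive fit, error bars are 1 SE, filled symbols passed an adjusted p of 0.05). The 6 filled symbols are all above 0 and belong to ALDH3A1, ALDH1A3, ALDH3B1 and ALDH2, and the E292V estimates of these 4 genes are below 0.

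ALDH3A2 and ALDH3B1 act on lipid-derived aldehydes; ALDH3A2 is the fatty aldehyde dehydrogenase of the endoplasmic reticulum that is defective in Sjögren-Larsson syndrome. ALDH3B1 (chromosome 11, 68008578 to 68029282, plus strand) was at 218 and 189 CPM in WT, 272 and 274 in KO, 272 and 355 in L101P, 199 and 171 in E292V, and 250 and 254 in E690K. Its order of lines was that of ALDH3A1, although E292V overlapped with WT and KO with L101P. ALDH3B1 was higher than WT in L101P (log2 fold change 0.63, SE 0.12, edgeR adjusted p = 0.0142). The KO and E690K estimates were 0.43 and 0.31 (SE 0.12 each, edgeR adjusted p = 0.102 and 0.169). Its close paralog ALDH3B2 had 0 to 20 counts per library, and how reads shared by the pair were assigned is not given in the sources used here.

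ALDH3A2 lies near ALDH3A1 on chromosome 17, from 19648136 to 19677598 on the plus strand. It was at 376 and 350 CPM in WT, 417 and 402 in KO, 396 and 369 in L101P, 341 and 304 in E292V, and 349.5 and 349.7 in E690K. KO was highest and E292V lowest, but the spread was narrow, at a ratio of 1.27 between their means, against 3.00 between the highest and lowest line for ALDH3A1. No comparison of ALDH3A2 with WT passed (edgeR adjusted p = 0.277 to 0.772). The antisense gene AC005722.3 shares 98 bases of exon with ALDH3A1 and had at most 324 counts, against at least 59448 for ALDH3A1. AC005722.3 was itself higher in L101P and E690K than in WT, by 1.51 and 1.48 in log2 (SE 0.37 each, edgeR adjusted p = 0.0417 and 0.039), and reads of the shared bases cannot be told apart.

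None of the members of the amino acid and carnitine branch passed the joint test in edgeR. ALDH7A1 (chromosome 5), which breaks down an intermediate of lysine catabolism, ranged from 64.0 to 87.1 CPM, and the transduced L101P library was the highest. ALDH9A1 (chromosome 1) ranged from 62.0 to 79.8 CPM, with both E292V libraries below the other 8. ALDH18A1 (chromosome 10) had the narrowest range of the 10 members, from 91.2 CPM in untreated WT to 111 CPM in untreated E690K, or 1.21-fold. Their estimates against WT lay between -0.17 and 0.19 (log2), and 0 of the 12 passed in edgeR or in DESeq2 (1, ALDH9A1 in E292V, had an unadjusted p under 0.05). In E292V 1857 of all 17978 genes had such a p. In the joint test DESeq2 called ALDH9A1 (DESeq2 adjusted p = 0.0138).

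**Figure D3:**
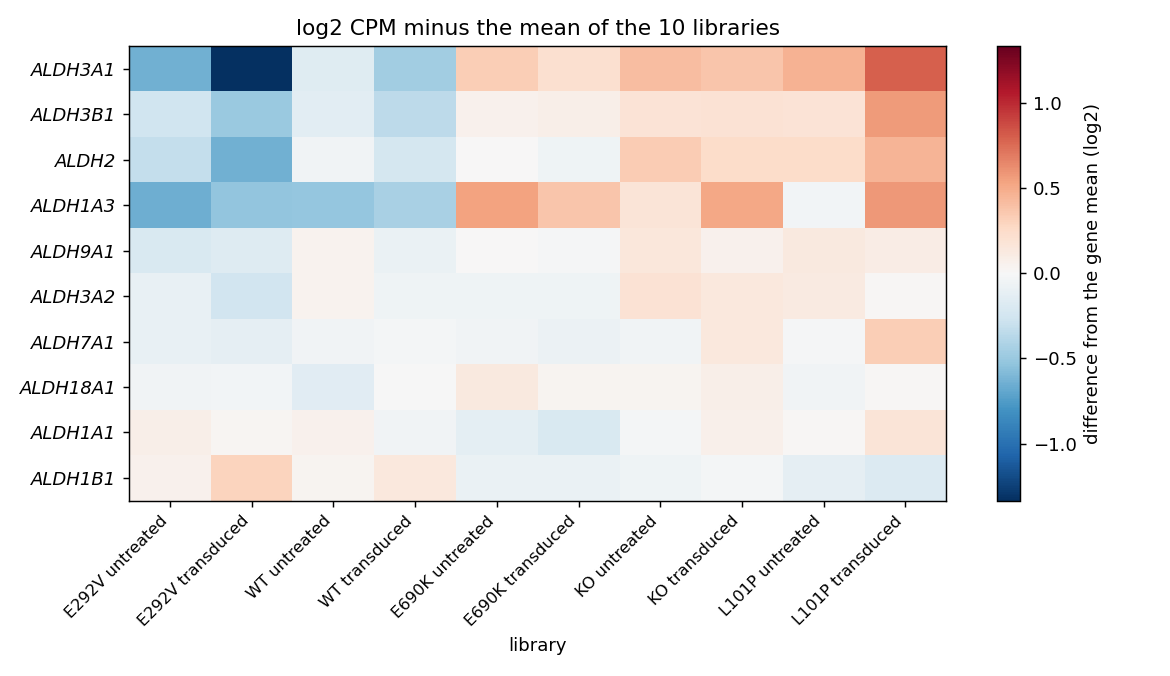
Log2 CPM of each member in each library minus the mean of that gene over the 10 libraries (colour scale, log2 units), with lines ordered by their mean ALDH3A1 level. ALDH3A1, ALDH3B1, ALDH2 and ALDH1A3 are below their means in the E292V and WT columns at the left and mostly above them to the right, except near-mean values of ALDH2 in E690K and of ALDH1A3 in untreated L101P, and ALDH1B1 at the bottom runs the other way.

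By line, L101P had 4 of 10 members past the threshold (ALDH3A1, ALDH1A3, ALDH3B1 and ALDH2), each higher than WT, where 3.94% of all genes passed, 2.33% higher and 1.61% lower. KO had 1 member in edgeR, ALDH1A3, which was higher, against 1.80% of all genes, 0.807% higher and 0.990% lower. DESeq2 called 3 members in KO, and 744 genes over the whole table. In E690K the 1 member was again ALDH1A3, higher, against 5.38% of all genes, 3.05% higher and 2.33% lower. In E292V 0 members passed in edgeR, against 1.05% of all genes, 0.295% higher and 0.756% lower, and DESeq2 called 0 members. An unadjusted edgeR p under 0.05 was found for 4 members of that line, where 1857 of all 17978 genes had one. For KO these counts were 5 members and 2532 genes, for L101P 5 and 3292, and for E690K 4 and 3474. The median log2 fold change of the 10 members was 0.17 in L101P, 0.16 in KO, 0.06 in E690K and -0.13 in E292V, beside -0.01, -0.01, -0.02 and 0.00 over all genes tested.

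Single libraries and settings decided several of these calls. Without the transduced WT library 0 of the 4 calls in L101P remained (edgeR adjusted p = 0.0577 to 0.149), and the ALDH1A3 call was lost in KO without that library (0.112) or the transduced KO library (0.241) and in E690K without the untreated E690K library (0.0776). ALDH2 in L101P was also lost without the transduced L101P library (edgeR adjusted p = 0.127), the untreated WT library (0.0694), either E690K library (0.0505 and 0.0531), the KO pair (0.0526) or the E690K pair (0.0649). With the KO labels exchanged, ALDH1A3 in KO (edgeR adjusted p = 0.0537) and ALDH2 in L101P (0.0562) did not pass. Conversely, without the L101P pair ALDH3A1, ALDH2 and ALDH3B1 passed in KO (edgeR adjusted p = 3.01e-04 to 0.00231), ALDH3A1 and ALDH2 in E292V (0.00101 and 0.0224), and ALDH3A1 and ALDH3B1 in E690K (9.20e-04 and 0.0082). Calls over all genes moved in the same settings: those in L101P fell without the transduced WT library. Without the L101P pair they rose from 323 to 1120 genes in KO, from 189 to 689 in E292V and from 967 to 1993 in E690K. The sign of the estimate for ALDH3A1, ALDH1A3, ALDH3B1 and ALDH2 was the same under every alternative in each of the 4 lines.

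The vector effect was then examined over the 5 lines, paired by line. Of the 10 members 0 passed (edgeR adjusted p = 0.715 to 0.997), as did 0% of all genes at that threshold. ALDH1A3 alone had an unadjusted p under 0.05, with a log2 fold change of 0.20 (SE 0.09, unadjusted p = 0.0463), and 6.88% of all genes had such a p. DESeq2 likewise called 0 members. The median over the members was 0.00, as over all genes.

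Within single lines the change was uneven, without replicate error. ALDH3A1 fell from 1002 to 619 CPM in E292V, a change of -0.70 (log2), and went from 2155 to 2708 CPM in L101P, a change of 0.33. In WT, KO and E690K it was lower in the transduced library by smaller amounts. In L101P the transduced library was higher for 7 of 10 members, up to 0.61 (log2) for ALDH1A3, and in E690K for 2 of 10, none beyond 0.02. Without either L101P library, ALDH3A1 passed as lower with the vector (log2 fold change -0.29, edgeR adjusted p = 0.0344 and 0.0358). It did not pass without the whole L101P pair, where the estimate was -0.28 and the edgeR adjusted p 0.106.

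**Figure D4:**
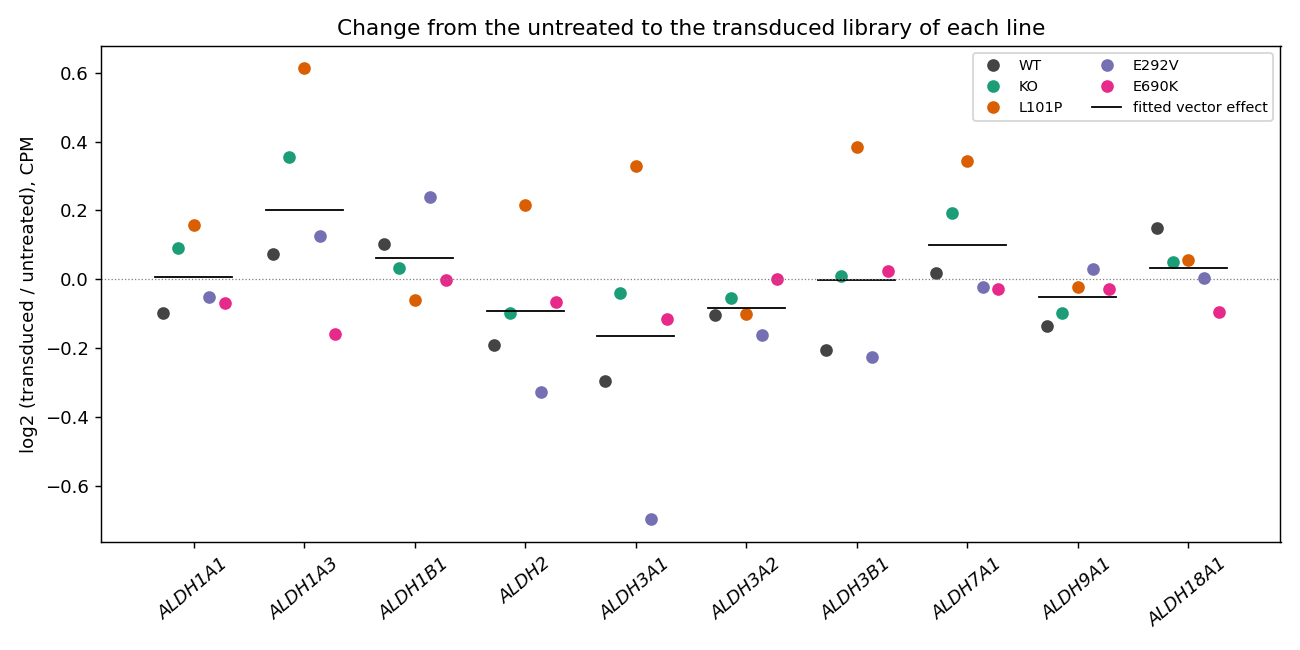
Log2 ratio of the transduced to the untreated library (TMM-scaled CPM) for each member in each line, with the fitted vector effect of edgeR as a horizontal bar. The L101P points reach 0.61 for ALDH1A3 and the E292V point of ALDH3A1 lies at -0.70, while the fitted effects stay between -0.16 and 0.20.

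The remaining 9 genes of the human family were read in the same way. ALDH16A1 was the highest of them, at 33.9 to 60.2 CPM, and the only one past the joint test (edgeR adjusted p = 0.0187). It was higher than WT in L101P (log2 fold change 0.51, SE 0.12, edgeR adjusted p = 0.0329). The mitochondrial enzymes ALDH4A1, ALDH5A1, ALDH6A1 and ALDH1L2, which act in proline, GABA, valine and folate metabolism, had levels of 5.77 to 22.4 CPM and did not pass (edgeR adjusted p = 0.267 to 0.625). ALDH1A2, ALDH1L1, ALDH3B2 and ALDH8A1 had at most 28 counts in a library, and ALDH1A2 did not reach the expression filter.

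Retinoid genes were examined beside the ALDH1A enzymes. Of 22 listed genes 20 were tested and 7 passed the joint test, beside 13.0% of all genes. RARB, a retinoic acid receptor whose gene is itself induced by retinoic acid, was lower than WT in L101P and E690K (log2 fold changes -1.996 and -1.993, SE 0.38 each, edgeR adjusted p = 0.014 and 0.00892). RARB stood at 2.58 and 4.35 CPM in WT, 3.60 and 7.98 in E292V, and 0.771 to 0.936 CPM in the L101P and E690K libraries. CYP26A1, which degrades retinoic acid, was at 3.28 and 2.96 CPM in E292V and 0.800 to 1.99 CPM in the other 8 libraries. CRABP2, a carrier of retinoic acid, was at 5.18 and 5.68 CPM in E292V and 3.18 to 5.10 CPM elsewhere, and DHRS9, a retinol dehydrogenase, was at 0.0208 to 2.24 CPM. CYP26A1, CRABP2 and DHRS9 passed the joint test (edgeR adjusted p = 0.0119, 0.0462 and 0.0128) but no comparison with WT. In the list as a whole 2 genes were higher and 1 lower in L101P, and 1 higher and 3 lower in E690K. Over all genes, 2.33% were higher and 1.61% lower in L101P, and 3.05% higher and 2.33% lower in E690K. The 2 genes higher in L101P are not among those named here, which were picked by their range between lines and reached at most 7.98 CPM. The summed level of the list was 693.4 to 706.5 CPM in WT, 724.5 to 734.3 in KO and 704.3 to 853.9 in L101P. It was 667.1 to 673.1 CPM in E292V and 701.6 to 703.5 in E690K. In KO and E292V 0 passed in edgeR or DESeq2, with 7 and 2 genes at an unadjusted p under 0.05. Of all 17978 genes, 2532 had such a p in KO and 1857 in E292V.

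The NRF2 and aryl hydrocarbon receptor lists were read because ALDH3A1 is a known target of the latter and aldehyde-handling genes are typical of the former. Of 25 NRF2 target genes 13 passed the joint test, beside 13.0% of all genes. Their directions were mixed: 3 were higher and 3 lower than WT in KO, 4 and 3 in L101P, 0 and 2 in E292V, and 1 and 4 in E690K. Over all genes the shares higher and lower were 0.807% and 0.990% in KO and 2.33% and 1.61% in L101P. They were 0.295% and 0.756% in E292V, and 3.05% and 2.33% in E690K. The medians of the list were 0.13, 0.04, -0.14 and -0.17 in the same order. AKR1C1, an aldo-keto reductase, was higher in L101P (log2 fold change 0.52, SE 0.12, edgeR adjusted p = 0.0286) and lower in E292V (-0.67, SE 0.12, 0.0197). HMOX1, heme oxygenase, was lower in 3 lines, with estimates of -0.93 in KO, -0.98 in L101P and -0.88 in E690K (log2, SE 0.20 each, edgeR adjusted p = 0.0354, 0.0179 and 0.0232). GPX2 and AKR1C3 passed the joint test (edgeR adjusted p = 0.0061 and 0.00395), with their lowest library in transduced E292V at 284 and 834 CPM, and no comparison of theirs with WT passed.

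Of 9 aryl hydrocarbon receptor genes 8 were tested and 3 passed the joint test, beside 13.0% of all genes. TIPARP, a feedback inhibitor of the receptor, was at 63.56 and 63.60 CPM in WT, 89.6 and 93.8 in KO, 89.8 and 76.1 in L101P, 49.2 and 54.8 in E292V, and 78.7 and 80.4 in E690K. It was higher than WT in KO and L101P (log2 fold changes 0.53 and 0.38, SE 0.09 each, edgeR adjusted p = 0.0139 and 0.0392). AHRR and NQO1 passed the joint test alone (edgeR adjusted p = 0.0185 and 0.0248).

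Lists tied to the other members were read in the same way, beside the 13.0% of all genes that passed the joint test. Of 9 tested proline and glutamate genes 3 passed the joint test, and 1, PRODH2, was lower in E690K (log2 fold change -2.51, SE 0.40, edgeR adjusted p = 0.00351). PYCR1, which finishes proline synthesis downstream of ALDH18A1, was at 45.96 to 62.7 CPM in the KO, L101P and E690K libraries and at 64.8 to 77.2 CPM in WT and E292V, and passed the joint test alone (0.00525). Of 4 tested alcohol dehydrogenases 2 passed it, and 2 were lower in E690K, of which ADH6 was estimated at -2.70 in log2 (SE 0.40, edgeR adjusted p = 0.00207). Over all genes, 2.33% were lower in E690K. In the lysine, carnitine and betaine list 2 of 8 tested genes passed the joint test (DHTKD1 and SHMT1), and in the fatty aldehyde and sphingolipid list 2 of 8 (AGMO and SPHK1). Against WT, 0 of the 32 tests over the 4 lines passed in edgeR in either list, 4 in each had an unadjusted p under 0.05, and DESeq2 called 0 in the first and 2 in the second.

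Markers of other cell types were set beside the line differences. The fibroblast list summed to 75.5 and 119 CPM in E292V and to 16.4 to 46.6 CPM in the other 8 libraries, most of it COL1A1, which was higher in E292V (log2 fold change 1.42, SE 0.26, edgeR adjusted p = 0.0214). COL1A1 ran opposite to ALDH3A1 over the 10 libraries (Pearson r = -0.97), whereas COL1A2, COL3A1 and DCN had at most 34 counts in a library. LUM, the remaining gene of the list, had another course: it was at 1.57 to 4.05 CPM, was higher than WT in E690K (log2 fold change 1.02, SE 0.26, edgeR adjusted p = 0.0371) and had an r of 0.25 with ALDH3A1. The epithelial list summed to 5364 to 5879 CPM in E292V, 6268 to 6835 in WT, 7474 to 8667 in KO, 7758 to 7982 in E690K and 7703 to 11797 in L101P. Most of that sum was KRT8 and KRT18, whose r with ALDH3A1 was 0.89 for each, and KRT19 had an r of 0.94. CDH1, also in the list, was at 21.8 to 35.4 CPM and did not pass the joint test. EPCAM had an r of 0.30 with ALDH3A1. It was higher than WT in KO and E690K (log2 fold changes 1.25 and 0.71, SE 0.17 each, edgeR adjusted p = 0.00434 and 0.0327), and its estimate in E292V was 0.65 (SE 0.17, edgeR adjusted p = 0.122). Of the leukocyte markers, CD68 was at 20.1 to 44.1 CPM and CD14 at 1.16 to 5.46 CPM, whereas PTPRC had at most 10 counts and CD3E 0. The endothelial list summed to at most 1.05 CPM. The part of these differences in the levels of the aldehyde dehydrogenases was not tested.

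The genes whose log2 levels were most like those of a member were sought among 11964 other genes, over the 10 libraries. For ALDH3A1 these were LRP8 (Pearson r = 0.99), BICDL1 (0.98) and MALL (0.98). For ALDH2 they were ITGB5, SLC27A2 and BICDL1, for ALDH3B1 OAS1, RYR1 and FAM102A, and for ALDH1A3 RACGAP1, LMO7 and CARD10, with r between 0.98 and 0.99. ALDH3A2 was matched less closely, by CPLX2, ATP9B and CARMIL1 (r = 0.96 to 0.97). Among the members themselves, ALDH3A1, ALDH2 and ALDH3B1 were correlated with r of 0.94 to 0.96, and ALDH1A3 with these 3 by 0.73 to 0.83. The r of ALDH1A1 with ALDH3A1 was 0.00. The libraries of a line share its cells, so these values describe 5 lines more than 10 independent points.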

How the data were processed

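The authors deposited whole-number counts per gene for 10 libraries. Per the submitters' processing notes, GRCh38, Subread, featureCounts, edgeR and limma were used, with no versions or roles; the annotation, strand setting and counting of mates are not given in the sources used here. Among values from 1 to 10, 81.4% were even, as when both mates of a pair are counted, so 95% Wilson intervals used counts divided by 2. They cover counting error only, since reads carried no molecular identifiers. Every column of values was used.

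The tool was edgeR 4.0.16 (R 4.3.3), with filterByExpr, TMM factors (0.972 to 1.03), and 1 quasi-likelihood fit of line and vector (4 residual degrees of freedom), Benjamini-Hochberg adjusted over 17978 genes. The procedure was tested on simulated data in which every gene had the same relative spread and only L101P was changed. That setting is simpler than these libraries, so it does not measure the error rate here. SE is the absolute log2 fold change divided by the square root of F. The labels pair the 2 libraries of a line; their deviations from the group means correlated at 0.18 to 0.44 in the 5 lines. Positions and exon lengths come from GENCODE release 29.

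The members, the 8 gene lists and the marker lists were chosen with earlier results of these data known. All members are reported; from each list at most 4 genes past the joint test with the widest range between lines are named (all tested ones for the family), and the 3 genes most correlated with each called member among those with log2 CPM of at least 1. AC005722.3 was named as a called neighbour of ALDH3A1. Alternatives were DESeq2 1.42.0, its size factors in edgeR, other filters, left-out libraries and pairs, exchanged KO labels, and fits without the vector or line term. One marker of the leukocyte list is not reported here.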

Additional observations from a re-analysis of the deposited data

How the results depend on the processing

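Leaving out single libraries or the pair of a line moved the number of members called from 5 to between 4 and 9 in the joint test of the lines, from 1 to between 0 and 4 in KO, from 4 to between 0 and 6 in L101P, from 0 to between 0 and 2 in E292V, from 1 to between 0 and 3 in E690K, and from 0 to between 0 and 1 for the vector. The counts of 9 and 6 came without the untreated L101P library. Over the whole table the counts ranged from 931 to 4555 genes in the joint test, 25 to 1226 in KO, 180 to 1967 in L101P, 13 to 810 in E292V, 169 to 2147 in E690K and 0 to 206 for the vector. Where 1 library of a line was left out, the other was assumed to vary like the rest.

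Without a filter on low counts, 4 members passed in KO, 2 in E292V and 3 in E690K, and 3661, 982, 1437, 662, 1659 and 237 genes passed over the whole table in the joint test, KO, L101P, E292V, E690K and the vector. With DESeq2, 7 members and 3418 genes passed the joint test, 3 members passed in KO, and 744, 1236, 432, 1464 and 113 genes passed in KO, L101P, E292V, E690K and the vector. With the KO labels exchanged, 0 members passed in KO, and 142, 367, 105 and 599 genes passed in the 4 lines in that order. Without the vector term 165 genes passed in KO. The cause was not tested. With DESeq2 size factors in edgeR the number of members called was the same in each of the 6 comparisons.

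Estimates near 0 changed sign. Without the replicate block for line, 0 members passed for the vector, ALDH3B1 was at 0.033, and no other member changed direction; with the KO labels exchanged ALDH1A1 was at -0.03. With libraries left out, the vector estimate of ALDH1A1 ran from -0.031 to 0.034 and that of ALDH3B1 from -0.099 to 0.053. Against WT, ALDH1A1 ran from -0.04 to 0.08 in KO, -0.009 to 0.182 in L101P and -0.015 to 0.11 in E292V. ALDH18A1 ran from -0.011 to 0.142 in L101P and -0.037 to 0.113 in E292V. In E292V ALDH1B1 ran from -0.022 to 0.206 and ALDH7A1 from -0.147 to 0.002, and in E690K ALDH7A1 ran from -0.109 to 0.058 and ALDH9A1 from -0.025 to 0.071.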

Other observations

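Of the 5 tested genes on each side of ALDH1A1 on chromosome 9, 4 of 10 passed the joint test of the 5 lines (GDA, LINC01504, TRPM6 and C9orf40), where 13.0% of all genes passed. GDA, which encodes guanine deaminase, was higher than WT in KO and L101P by log2 fold changes of 1.54 and 1.40 (SE 0.32 each, edgeR adjusted p = 0.0336 and 0.0316) and lower in E292V by -1.62 (SE 0.35, 0.0491). TRPM6, a magnesium channel, was lower in L101P (-1.15, SE 0.26, edgeR adjusted p = 0.0297).

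Around ALDH3A1 3 of 10 neighbours passed the joint test, ALDH3A2, AC005722.3 and ULK2, and the median log2 fold change of the 10 neighbours in L101P was 0.05, where ALDH3A1 was at 0.96. Around ALDH2 and ALDH3B1 1 neighbour each passed the joint test (SH2B3 and UNC93B1). The count was also 1 around ALDH1B1 and around ALDH9A1, 2 around ALDH7A1, 3 around ALDH3A2, and 0 around ALDH1A3 and ALDH18A1. The neighbours of ALDH1A1 thus had the highest count among the members, and whether they stand out was not tested.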
